A study of Mus musculus with 12 samples.

Results

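TNF and NF-kB pathway genes were followed in alveolar macrophages of mice given multiwalled carbon nanotubes (MWCNT). The set comprised the cytokine gene Tnf, its receptor genes Tnfrsf1a and Tnfrsf1b, the NF-kB subunit genes Nfkb1, Nfkb2, Rela and Relb, the inhibitor genes Nfkbia and Tnfaip3, and the adhesion molecule gene Icam1. Members were all probes that the platform annotation assigns to these 10 symbols. That gave 15 of the 45281 probes on the array and 9 of its 19057 named genes. No probe was matched to Nfkb1 by symbol, gene ID or accession, so Nfkb1 was not analysed here.

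The MWCNT group was 6 C57Bl/6 mice that received 100 µg of MWCNT by the oropharyngeal route in a vehicle of 35% surfactant in saline, and the control group was 6 C57Bl/6 mice that received the vehicle alone. Alveolar macrophages, the resident phagocytes of the airspaces, were taken by bronchoalveolar lavage at day 60, at over 90% purity per the labels. RNA of each mouse was hybridised to 1 Illumina Mouse WG-6 v2 BeadChip array, 12 arrays in all. The labels used here do not state the sex of the mice. The study models chronic granulomatous inflammation, per its title, and MWCNT against control is the comparison its design sets.

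TNF is a cytokine that macrophages make in quantity when stimulated, and it acts through a widely expressed receptor, TNFR1, and a second receptor, TNFR2. Receptor adaptors and kinases activate the IkB kinase complex, IkB proteins are degraded, and dimers of NF-kB proteins enter the nucleus. There they switch on genes for chemokines, cytokines and adhesion molecules, and also genes for their own inhibitors, which makes the pathway self-limiting. Macrophage TNF is well known for its part in forming and maintaining granulomas.

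At a detection p under 0.05, 39.1% to 40.5% of probes were detected on the MWCNT arrays and 38.0% to 39.3% on the control arrays. The background signal was 148 ± 9.01 on MWCNT arrays and 130 ± 5.55 on control arrays (scanner units, SD, n = 6 each; exact permutation test, two-sided, adjusted p = 0.00649 for both measures, over 3 tested). Correlations of log2 levels lay between 0.984 and 0.993 within the MWCNT group and between 0.986 and 0.994 within the control group. Most Y-linked genes measured were detected on MWCNT arrays 5 and 6 and not on the other 10 arrays. The highest Xist signal was 5.05 and 5.26 in log2 units on these 2 arrays, and 10.8 to 11.5 on the other 10. No control array had Y-linked signal by this measure, so the groups were not balanced in it. All 15 member probes passed the filter on low signal, and 14 of them were detected on all 12 arrays. Of 11 measured markers of alveolar macrophages, all 11 were detected on every control array, while Siglecf and Fabp1 did not pass the filter on low signal. Marker lists of other cell types are given with the pathway genes further on.

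Promoter sequences of 3 members are shown because these genes stand at the start of the pathway and at its 2 feedback points. They are the 250 bases before the transcription start, from RefSeq on GRCm38.p6, written 5′ to 3′ on the gene's own strand. Capitals mark matches to the NF-kB (kB) consensus GGGRNNYYCC, searched on both strands, where R is A or G, Y is C or T and N is any base. The Tnf window is chr17:35202008-35202257 on the minus strand and has no match. The Nfkbia window is chr12:55492648-55492897 on the minus strand and has 1 match, which ends 19 bases before the start. The Tnfaip3 window is chr10:19015411-19015660 on the minus strand and has 2 matches, of which the nearer ends 2 bases before the start. A second Tnfaip3 window in the table, chr10:19011964-19012213, has no match and is not shown.
Tnf: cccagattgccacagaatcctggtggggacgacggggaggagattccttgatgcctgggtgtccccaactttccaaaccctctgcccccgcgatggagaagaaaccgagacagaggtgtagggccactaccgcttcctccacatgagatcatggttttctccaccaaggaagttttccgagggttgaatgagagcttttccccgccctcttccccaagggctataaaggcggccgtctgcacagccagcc
Nfkbia: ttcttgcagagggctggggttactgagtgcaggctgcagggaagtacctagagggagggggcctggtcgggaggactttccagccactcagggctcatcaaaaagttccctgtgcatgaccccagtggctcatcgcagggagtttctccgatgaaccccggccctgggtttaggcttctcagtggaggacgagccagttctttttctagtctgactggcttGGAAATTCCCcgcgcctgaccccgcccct
Tnfaip3: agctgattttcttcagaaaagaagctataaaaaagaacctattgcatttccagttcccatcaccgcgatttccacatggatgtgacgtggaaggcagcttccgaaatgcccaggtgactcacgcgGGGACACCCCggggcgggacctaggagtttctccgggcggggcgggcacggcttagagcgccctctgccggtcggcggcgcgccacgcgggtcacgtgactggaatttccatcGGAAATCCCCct
A match describes letters and is not evidence of binding. A window without a match does not show that the gene has no kB site, since sites farther away or spelled otherwise were not searched. The consensus was present in 7.25% of all 32841 promoter windows of this length. Of 8 members with a window in the table, 3 had it in at least 1 window, namely Nfkbia, Tnfaip3 and Nfkb2, against 8.24% of all 27018 genes with a window.

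None of the 9 measured members passed the test between MWCNT and control alveolar macrophages. Of the 13210 features tested, 12.9% were called at an adjusted p under 0.05 (limma with Benjamini-Hochberg adjustment over all of them), against 0 of 9 members. At an unadjusted p under 0.05 the members numbered 2, against 27.6% of all features, and the exact permutation test on each member gave 0 under 0.05. Differences, given throughout as MWCNT minus control on the log2 scale of normalized signal, ran from -0.39 for Tnfrsf1a to 0.36 for Nfkb2. The median over the members was -0.00, beside -0.02 over all features. In 4 members the difference was above 0 and in 5 it was below 0, and in none did the 6 MWCNT arrays and the 6 control arrays fall into ranges that did not overlap. Over all features 4.07% had every MWCNT array above every control array and 2.81% had every one below. At those shares, 0 of 9 members does not set them apart from other features. Over 25 alternative settings Tnfrsf1a and Nfkb2 were each called in 1, and the other 7 members in none. Without the 2 arrays with Y-linked signal, 0 members were called, with adjusted p between 0.289 and 0.797 (limma).

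**Figure D1:**
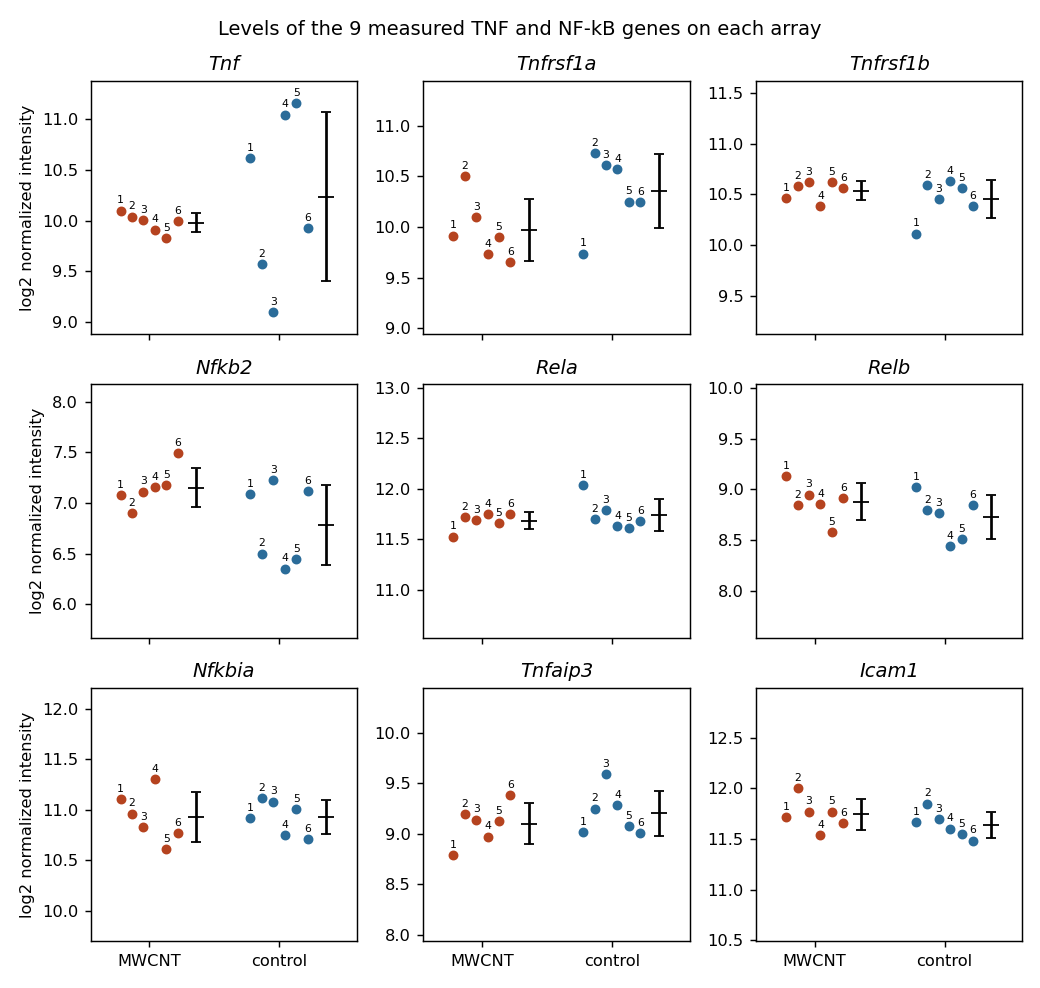
Normalized log2 signal of the 9 members on each array, with MWCNT arrays left of control arrays, 1 point per mouse and a bar at the group mean with its SD (n = 6 each). In every panel the groups overlap, and for Tnf the MWCNT points lie between 9.83 and 10.10 while the control points lie between 9.10 and 11.16.

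**Figure D2:**
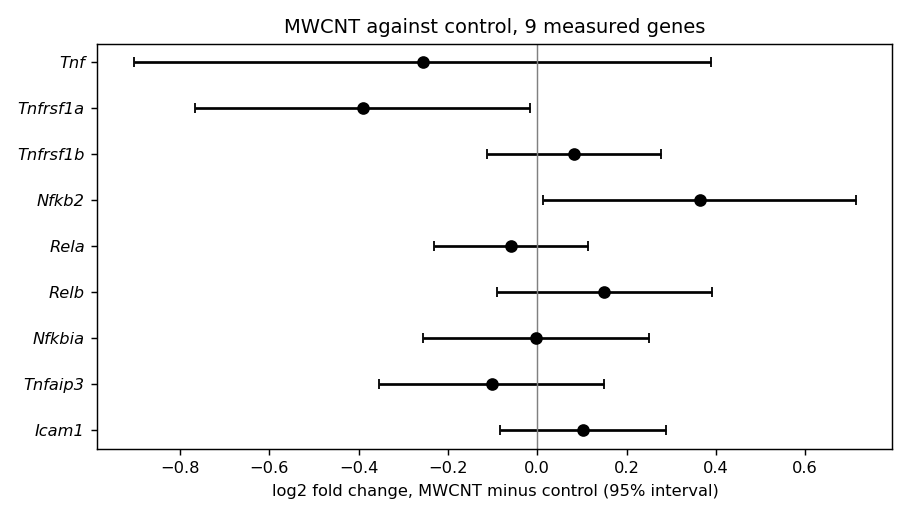
Log2 difference, MWCNT minus control, of each member with its 95% confidence interval from limma. The intervals of Tnfrsf1a and Nfkb2 lie to 1 side of 0 before adjustment, and no member passed an adjusted p of 0.05.

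Tnf itself, the ligand, gave a signal 4.55 to 15.7 times the background of its array over the 12 arrays. Its log2 level in the MWCNT mice was 9.83 at the lowest, 10.002 at the median and 10.10 at the highest, against 9.10, 10.27 and 11.16 in the controls. All 6 MWCNT values lay inside the control range. Control mice 4 and 5 were highest at 11.05 and 11.16, and control mouse 3 was lowest at 9.10. The means were 9.98 ± 0.10 in MWCNT mice and 10.24 ± 0.84 in controls (SD, n = 6 each). The difference was -0.26 ± 0.30 (SE), with a 95% confidence interval of -0.90 to 0.39, and did not pass (adjusted p = 0.633 by limma; exact permutation p = 0.483). Leaving out 1 mouse at a time moved it between -0.48 without control mouse 3 and -0.07 without control mouse 5, never past the threshold. In linear terms that interval runs from 0.535-fold to 1.31-fold. A second Tnf probe gave -0.28 (adjusted p = 0.630 by limma). The RNA came from whole lavage isolates, so fewer cells of a type and less RNA per cell cannot be told apart for Tnf or any other gene.

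What differed for Tnf was its spread. The SD was 0.10 in MWCNT mice and 0.84 in control mice, so that the control SD was 8.62 times the MWCNT SD. Values in MWCNT mice spanned 0.27 log2 units and values in controls spanned 2.06, or a 1.21-fold range against a 4.18-fold range. The control SD of Tnf was at the 99.9 percentile of all features. Counting Tnf itself, 16 features (0.121%) had a control SD at least as high. The MWCNT SD of Tnf was at the 13.8 percentile. For comparison, the median SD over all features was 0.18 in MWCNT arrays and 0.18 in control arrays. Both Tnf probes gave this pattern, with a correlation of 0.988 between them over 12 arrays and a control SD 5.82 times the MWCNT SD at the second probe. A two-sided exact permutation test of the absolute deviations from the group median gave p = 0.00216, the smallest that 6 against 6 arrays allow, and p = 0.00649 for the second probe. This test was chosen after the values were seen. Without the 2 arrays with Y-linked signal the MWCNT SD was 0.079 over 4 mice. Among the other members, Nfkb2 was at the 94.0 percentile of control SD and Tnfrsf1a at the 91.3 percentile.

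**Figure D3:**
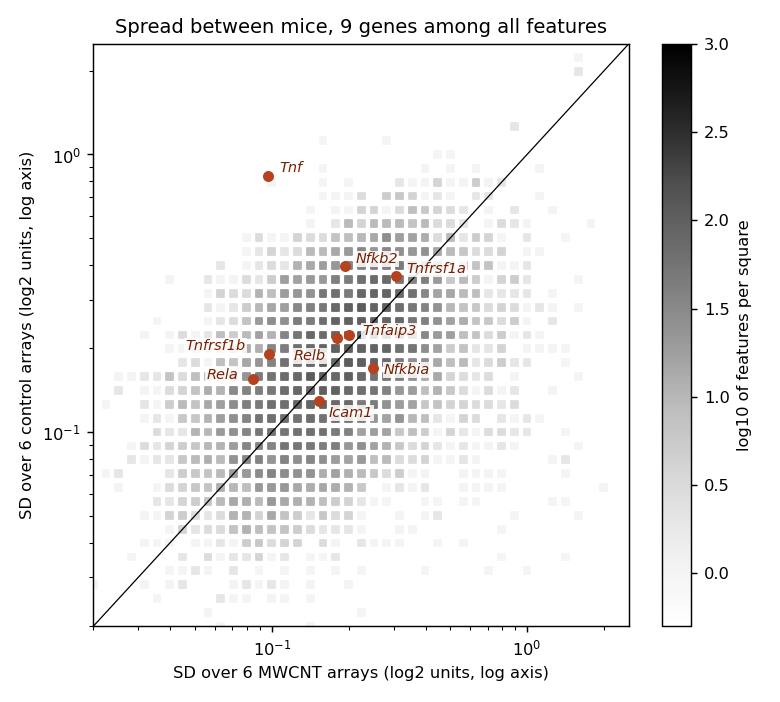
SD of log2 signal over the 6 MWCNT arrays (x, log axis) and over the 6 control arrays (y, log axis), with the members as points, all features as squares shaded by their number, and a line where the SDs are equal. Tnf lies far toward a high control SD, at 0.84 in controls beside 0.10 in MWCNT arrays, while the other members lie nearer the bulk of features.

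Likeness to Tnf was taken as the Pearson correlation of deviations from the group means over the 12 arrays, and it is a description only. The 5 named genes with the highest values were Egr2 (0.88), Bhlhe40 (0.86), Proca1 (0.84), Dync2h1 (0.84) and Reep5 (0.83). Egr2 and Bhlhe40 encode transcription factors. Within the 6 control arrays the correlations of the 5 genes with Tnf lay between 0.92 and 0.97, and within the 6 MWCNT arrays they lay between -0.83 and 0.38. The largest deviation of Tnf was -1.14 in the controls and -0.15 in the MWCNT mice. The genes were thus picked mostly on the control arrays, and this contrast follows in large part from that choice. None of these 5 was called between groups. The NF-kB target genes with the largest control SD were Il1b (0.735), Gadd45b (0.682), Lcn2 (0.624) and Myc (0.602), and their correlation with Tnf in the controls was -0.54, 0.05, -0.72 and 0.82.

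The spread of Tnf was also set against that of its feedback inhibitors, since NF-kB induces Nfkbia and Tnfaip3. Deviations of Tnf and Nfkbia had Pearson's r = -0.21 and Spearman's rho = -0.08 over 12 arrays (permutation p = 0.438 and 0.795, adjusted over 3 relations 0.642 and 0.858). Deviations of Tnf and Tnfaip3 had r = -0.44 and rho = -0.25 (permutation p = 0.209 and 0.472, adjusted 0.626 and 0.858). Without control mice 3 and 5, those farthest from the median in Tnf, the Tnf and Tnfaip3 value was 0.01 and the Tnf and Nfkbia value was -0.21. Nfkbia and Tnfaip3 had r = -0.15 and rho = -0.06 (permutation p = 0.642 and 0.858, adjusted 0.642 and 0.858), and -0.04 without MWCNT mice 4 and 5. Within the MWCNT group the 3 values of r were 0.34, -0.20 and -0.63, and within the control group -0.43, -0.58 and 0.47, in the order Tnf with Nfkbia, Tnf with Tnfaip3, and Nfkbia with Tnfaip3. No relation passed its test.

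Tnfrsf1a, which encodes the widely expressed receptor TNFR1, had the most negative difference of the set. Its log2 level was 9.65, 9.91 and 10.51 (lowest, median, highest) in MWCNT mice and 9.74, 10.41 and 10.73 in controls. The ranges overlap over most of their length, through MWCNT mouse 2 at 10.51 and control mouse 1 at 9.74. The other MWCNT mice lay at or below 10.09 and the other control mice at or above 10.24. The means were 9.97 ± 0.31 in MWCNT mice and 10.36 ± 0.36 in controls (SD, n = 6 each), a difference of -0.39 ± 0.17 (SE) with a 95% confidence interval of -0.77 to -0.02 (unadjusted p = 0.0425, adjusted p = 0.163 by limma; exact permutation p = 0.0736). The 3 probes of the gene gave -0.39, -0.45 and -0.40. Without control mouse 1 the difference was -0.52 and passed (adjusted p = 0.0426 by limma), and over the 12 fits that each left out 1 mouse the adjusted p ran from 0.0426 to 0.288.

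Tnfrsf1b encodes TNFR2, the receptor prominent on immune cells. Levels on the log2 scale were 10.38, 10.57 and 10.62 in MWCNT mice and 10.11, 10.51 and 10.63 in controls. The difference was 0.08 ± 0.09 (SE), with an interval of -0.11 to 0.28, and did not pass (adjusted p = 0.606 by limma). Its 2 other probes gave -0.02 and 0.01.

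Among the NF-kB subunits, Nfkb2 encodes the p100 precursor of p52, which works in the non-canonical branch. Its log2 signal was 6.90, 7.13 and 7.49 in MWCNT mice and 6.35, 6.80 and 7.22 in controls. Control mice 2, 4 and 5, at 6.50, 6.35 and 6.44, were lower than every MWCNT mouse, and control mice 1, 3 and 6, at 7.09, 7.22 and 7.12, lay within the MWCNT range. The means were 7.15 ± 0.19 in MWCNT mice and 6.79 ± 0.40 in controls (SD, n = 6 each), a difference of 0.36 ± 0.16 (SE) with an interval of 0.01 to 0.71 (unadjusted p = 0.0427, adjusted p = 0.164 by limma; exact permutation p = 0.0952). It was called with scaling to the array median in place of quantiles, at 0.60 (adjusted p = 0.0197 by limma), a setting that moved the median of all features to 0.10. With the authors' processed values the difference was 0.10.

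Rela encodes the p65 subunit of the classical dimer. Its log2 level was 11.53, 11.71 and 11.75 in MWCNT mice and 11.61, 11.69 and 12.03 in controls, with control mouse 1 the highest at 12.03. The difference was -0.06 ± 0.08 (SE; interval -0.23 to 0.11; adjusted p = 0.691 by limma). Relb encodes the partner of p52 in the non-canonical branch. Log2 levels were 8.58, 8.89 and 9.13 in MWCNT mice and 8.44, 8.78 and 9.02 in controls, groups that overlapped widely. The difference was 0.15 ± 0.11 (SE; interval -0.09 to 0.39; adjusted p = 0.420 by limma).

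The feedback inhibitors had small differences. Nfkbia encodes IkB-alpha, which holds NF-kB in the cytoplasm, and its promoter window holds the single match shown above. Its log2 level was 10.61, 10.90 and 11.30 in MWCNT mice and 10.71, 10.97 and 11.12 in controls. The difference was -0.00 ± 0.12 (SE; interval -0.25 to 0.25; adjusted p = 0.993 by limma), and its second probe gave 0.25 (unadjusted p = 0.0357, adjusted p = 0.154 by limma). Tnfaip3 encodes A20, the ubiquitin-editing enzyme that switches off signaling to NF-kB. Log2 levels were 8.79, 9.13 and 9.39 in MWCNT mice and 9.01, 9.16 and 9.59 in controls. The difference was -0.10 ± 0.12 (SE; interval -0.35 to 0.15; adjusted p = 0.626 by limma). The MWCNT and control values of both genes overlapped.

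Icam1 encodes an adhesion molecule that leukocyte integrins bind and is a classical TNF and NF-kB target. The log2 level was 11.54, 11.74 and 12.00 in MWCNT mice and 11.48, 11.63 and 11.85 in controls. The difference was 0.10 ± 0.09 (SE; interval -0.08 to 0.29; adjusted p = 0.489 by limma), and groups overlapped. In linear terms, the intervals of Rela, Relb, Nfkbia, Tnfaip3, Icam1 and Tnfrsf1b lay between 0.782-fold and 1.31-fold.

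Other genes of the pathway, in 9 lists of 160 genes, had 125 measured members that passed the filter on low signal. Of these, 23 rose (18.4%) and 7 fell (5.6%), beside 6.98% and 5.89% of all features, and 95 did not pass. The lists were chosen with earlier results of these data known, so these shares are a description only. Of the raised genes, Lta, Cd27, Csf1 and Ccl2 were detected in no control and passed the filter only through MWCNT arrays. Egr3, Cxcl10 and Tnfrsf9, also raised, were detected in only 1 control each, too few to pass the filter without MWCNT arrays. The share raised thus includes genes let in by the group where they were high. The median difference was 0.06, also with the 5 genes that no control detected set to their bounds. In 20 of the 125 measured genes all MWCNT values exceeded all control values, and in 3 all were lower, beside 4.07% and 2.81% of all features. Restriction to genes detected on all 12 arrays gave 12 that rose and 6 that fell, beside 5.16% and 5.46% of all features. It kept 10457 features, so these counts are out of fewer than 125 genes. Median scaling gave 35 and 0, beside 12.8% and 1.63% of all features. Scaling to the kept probes gave 25 and 14, beside 6.12% and 14.1%. The 10 arrays without Y-linked signal gave 29 and 4, beside 7.22% and 4.78%. Scaling to the kept probes moved the median of all features to -0.10. The size of a difference depended on the treatment of background. Of the 17 named genes that rose, 14 had a log2 difference over 1.5 times smaller without background correction and 15 with the authors' processed values, where all but Lta were still called. The values given next, bounds included, hold for the background-corrected signal.

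**Figure D4:**
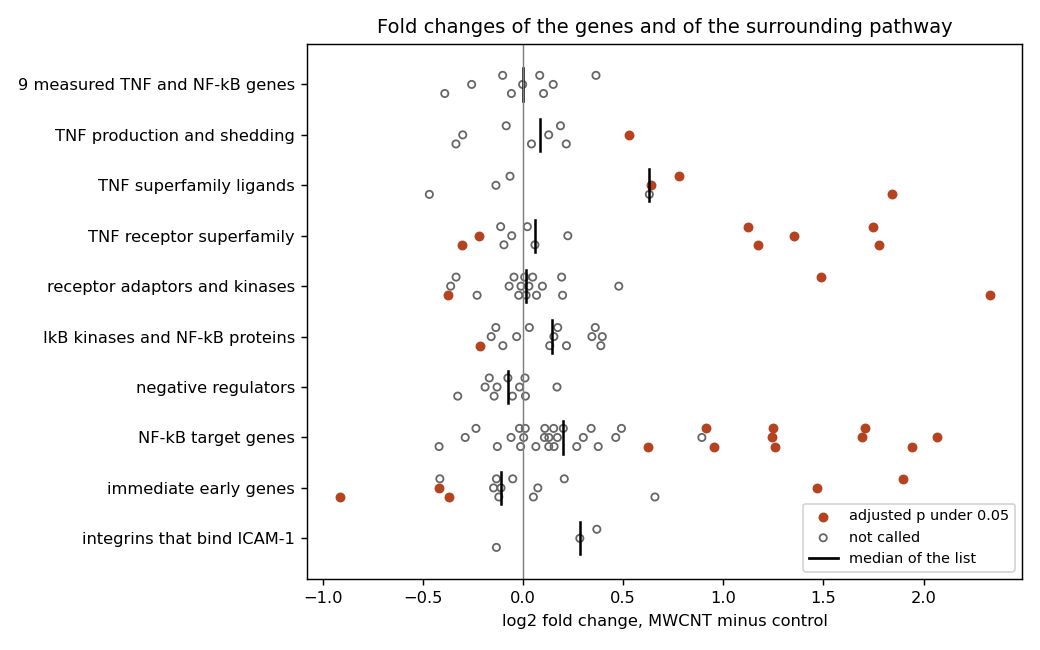
Fitted log2 difference (x), MWCNT minus control, of each measured gene of the members and of the 9 pathway lists, with genes called at an adjusted p under 0.05 as filled points, the others as open points and a bar at each list's median. The TNF receptor superfamily and NF-kB target lists hold most of the raised genes. Sphk1, in the list of receptor adaptors and kinases, is the highest of those named at 2.33.

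TNF superfamily ligands other than Tnf had 3 of 7 measured members raised and none lowered, with a median of 0.63, or 0.036 with Lta and Fasl, which no control detected, set to their bounds. Another 8 were on the array but under the filter. Ltb, lymphotoxin beta, differed by 1.84 ± 0.34 (SE, adjusted p = 0.00281 by limma), though detected in 4 of 6 controls, and by 0.53 with the authors' values. Lta, lymphotoxin alpha, was not well above background in any control and was at least 1.35-fold higher in MWCNT mice (adjusted p = 0.0124 by limma), against 1.07-fold, not called, with the authors' values. Tnfsf14, a co-stimulatory ligand also called LIGHT, differed by 0.78 ± 0.21 (adjusted p = 0.0257 by limma) and by 0.19 with the authors' values, a call lost in 6 of 25 alternatives. Tnfsf13b, the B cell survival factor BAFF, had -0.47 (adjusted p = 0.172).

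Receptors other than those of TNF had 5 of 13 raised and 2 lowered, with a median of 0.06. Cd40, the receptor through which T cells stimulate macrophages, differed by 1.75 ± 0.20 (adjusted p = 9.85e-05 by limma) and by 0.62 with the authors' values. Tnfrsf9, a co-stimulatory receptor of T cells, differed by 1.36 ± 0.17 (adjusted p = 0.000183 by limma), with detection in 1 control, and by 0.26 with the authors' values. Cd27, a lymphocyte receptor, was detected in no control and was at least 2.52-fold higher in MWCNT mice (adjusted p = 0.00188 by limma), against 1.29-fold with the authors' values. Tnfrsf4, a T cell co-stimulatory receptor, differed by 1.12 ± 0.20 (adjusted p = 0.00245 by limma) and by 0.52 with the authors' values. Tnfrsf21 fell by 0.31 in log2 units (adjusted p = 0.00746 by limma), and Fas, a death receptor, had 0.02 and did not pass.

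Production and shedding genes of TNF had 1 of 8 raised, none lowered and a median of 0.08. The raised gene was Zfp36l1, an RNA-binding protein that promotes mRNA decay, at 0.53 ± 0.10 (adjusted p = 0.00363 by limma). Litaf, a factor induced by lipopolysaccharide, had 0.22 and did not pass (adjusted p = 0.0555 by limma), but was called in 6 of 25 alternatives (adjusted p from 0.014 to 0.867 over all 25). Receptor adaptors and kinases had 2 of 19 raised and 1 lowered, with a median of 0.02. Sphk1, a sphingosine kinase, differed by 2.33 ± 0.19 (adjusted p = 1.93e-05 by limma), and Traf1, an adaptor of TNF receptors, by 1.49 ± 0.18 (adjusted p = 0.00014 by limma). With the authors' values these differences were 0.69 and 0.61. Traf5 fell by 0.38 in log2 units (adjusted p = 0.0354 by limma), a call lost in 15 of 25 alternatives, and Casp8 had 0.07 and did not pass.

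The IkB kinase and NF-kB protein list had none of 14 raised and 1 lowered, with a median of 0.14. Ikbkb, the kinase subunit of the classical pathway, fell by 0.22 in log2 units (adjusted p = 0.0416 by limma), a call lost in 13 of 25 alternatives, while Tbk1 had -0.14 and did not pass. Of 11 negative regulators of the pathway, none was called in either direction, with a median of -0.08. Tax1bp1, one of them, had -0.05.

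NF-kB target genes had 10 of 35 measured members raised and none lowered, with a median of 0.20, and in 9 of the 35 all MWCNT values exceeded all control values. Csf1, the macrophage growth factor, was detected in no control and was at least 2.40-fold higher in MWCNT mice (adjusted p = 6.87e-05 by limma), against 1.32-fold with the authors' values. The chemokines Ccl5 and Ccl4 differed by 1.71 ± 0.19 and 1.94 ± 0.26 (adjusted p = 7.29e-05 and 0.000343 by limma), and by 1.03 and 1.35 with the authors' values. Ccr7, a chemokine receptor of dendritic cells and lymphocytes, differed by 1.24 ± 0.16 (adjusted p = 0.000249 by limma), and Marcksl1 by 0.96 ± 0.12 (adjusted p = 0.000165 by limma). With the authors' values these were 0.38 and 0.30. Fth1, the ferritin heavy chain, had -0.02 and did not pass. The other raised targets were Ccl2, Ccl3, Cxcl10, Il1a and Cd86, named after their values were seen. Also named after their values were seen are some of the 25 targets not called. These were Il1b (-0.06), Cxcl1 (-0.01), Cxcl2 (0.06), Cebpb (0.00), Irf1 (-0.13), Junb (-0.29) and Plau (0.49). Sele, Ccl20, Il6, Il23a, Csf2, Nos2 and Ptgs2 were below the filter. Of raised targets with a promoter window, 2 of 5 held the kB consensus, and of targets not called, 7 of 19 held it.

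Immediate early genes had 2 of 15 raised and 3 lowered, with a median of -0.11. Egr3, detected in 1 control, had a fitted difference of 1.90 ± 0.24 (adjusted p = 0.000206 by limma), and Dusp2, detected in 3 controls, one of 1.47 ± 0.29 (adjusted p = 0.00438 by limma). With the authors' values these were 0.41 and 0.32. Klf4 fell by 0.37, Fos fell by 0.42 and Ier2 fell by 0.91 in log2 units (adjusted p = 0.00743, 0.0361 and 0.0435 by limma), with the calls of Fos lost in 11 of 25 and of Ier2 in 16 of 24 alternatives. Dusp1 had -0.13 and did not pass. Of 3 measured integrins that bind ICAM-1, none was called, with a median of 0.28; Itgal had -0.13.

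Marker lists of other cell types moved alongside these genes. Over all features 6.98% rose and 5.89% fell. Of 15 measured T and NK cell markers 11 rose and none fell, with a summed linear signal of 11837 to 16192 in MWCNT mice and 11315 to 13202 in controls. Cd2 and Cd8b1, which did not pass (-0.16 and -0.02), carried most of that sum, and the other 13 markers summed to 1532 to 5224 in MWCNT mice and 635 to 880.4 in controls. Cd4, Cd5, Cd8a, Gzmb and Ncr1 were below the filter. Of the raised T and NK cell markers, Cd6, Cd247, Ctla4 and Nkg7 were detected in no control. B and plasma cell markers rose in 3 of 4, summed at 124 to 1396 in MWCNT mice and 105 to 118 in controls. Blk, Cd79b, Fcer2a and Mzb1, the 4 measured, were detected in no control and passed the filter only through MWCNT arrays. They could therefore hardly be called lowered, and their control sums are signal near background. Ms4a1, Pax5, Cr2, Jchain and Sdc1 were below the filter. Dendritic cell markers rose in 7 of 8, summed at 1971 to 4648 in MWCNT mice and 1394 to 1717 in controls, with Flt3, Xcr1 and Cd209a below the filter. Markers of monocyte-derived macrophages rose in 10 of 14, summed at 37220 to 46107 in MWCNT mice and 25486 to 32282 in controls. Gpnmb made up the largest part of that sum, with mean log2 levels of 14.56 in MWCNT mice and 13.62 in controls. Cd14 (-0.17), Csf1r (-0.23), Fn1 (-0.27) and Cx3cr1 (0.23) did not pass. Of the raised markers of monocyte-derived macrophages, Ly6c1, F13a1 and Ccr2 were detected in no control. Alveolar macrophage markers had 2 of 11 raised and 1 lowered, summed at 138234 to 146828 in MWCNT mice and 136038 to 147626 in controls. Neutrophil markers rose in 3 of 5, summed at 4353 to 8064 in MWCNT mice and 2559 to 4120 in controls, with S100a8 the largest part. Csf3r (-0.17) and Ltf (-0.01) did not pass, and S100a9, which rose, was detected in no control. Ngp, Camp, Elane, Mpo, Retnlg and Mmp8 were below the filter. Lung epithelium markers rose in 2 of 7, summed at 7360 to 28026 in MWCNT mice and 2400 to 12901 in controls. Scgb1a1 made up the largest part of that sum. Ager (-0.39), Sftpc (-0.17), Krt8 (0.14), Sftpb (0.14) and Sftpa1 (0.27) did not pass. Endothelium markers rose in 1 of 3, summed at 1927 to 2412 in MWCNT mice and 1391 to 1892 in controls. Vwf carried most of that sum, and Cdh5 (0.54) and Eng (0.23) did not pass. Epcam and Krt18 of the epithelium, and Pecam1, Kdr, Tek, Cldn5 and Egfl7 of the endothelium, were below the filter. Of the raised pathway genes, Ccr7 is also a dendritic cell marker in these lists. The part of these cells in the results was not tested.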

How the data were processed

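Per the file headers, the deposited scanner table pairs a linear intensity with a detection p-value at every probe on every array. The deposited detection p-value rates the probe's signal relative to negative-control beads. The deposited matrix of the authors' processed intensities served as an alternative. Per the submitters' processing notes lumi was used for it, and its version is not given in the sources used here.

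Scanner intensities were handled with limma 3.58.1 (R 4.3.3, statmod 1.5.0) by neqc background correction with inferred negative controls, an offset of 16, quantile normalization and log2. Probes with a detection p under 0.05 on at least 3 of 12 arrays were kept (19291), and the brightest kept probe stood for a gene, which left 10143 named genes and 3067 unnamed probes. In the platform annotation 34885 probes had 1 symbol, 18 several and 10378 none. The groups were tested with lmFit and eBayes, with no covariate and two-sided, with Benjamini-Hochberg adjustment over all 13210 features, and single values by exact permutation tests (smallest p 0.00216) or 100000 resamples, with Python 3.11.15 and SciPy 1.17.1. A probe undetected in all arrays of a group has only a bound: its fold is written "at least", the brighter group's mean over a floor, which on each dim array is the lowest detected signal or, if higher, the probe's own value. Signals of different probes were ranked only to choose a gene's probe, the uncalled gene named per list and the 2 brightest T and NK cell markers. They were also summed over each marker list, and for some lists the marker with the largest part of the sum is named. These signals are not levels of genes relative to each other. Each array held a separate mouse, and the number of arrays limits the precision.

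The members and gene lists were chosen with earlier results of these data known. Named genes were all members, up to 5 genes per list with the smallest adjusted p among those called, the gene of each list with the highest probe signal among those not called, and the 5 genes most like Tnf. The labels state no pairing of mice by number. Correlations of same-numbered deviations ran from -0.18 to 0.15, and MWCNT mice 3, 5 and 6 matched the control mouse of their own number best. Whether the numbers pair the groups was not settled. Alternatives changed the background correction, normalization, source of values, filter, probe rule, variance model, array weights, block, sex and replicates. The exact tests of member means, that of the spread of Tnf and the T and NK cell marker sum without 2 markers were added after the data were seen. Nfkb1 was not analysed here.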

Additional observations from a re-analysis of the deposited data

Results flagged for a closer look

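Of 82 groups of 6 arrays examined for a sample far from the others, 9 held one in which the gap to the nearest array, divided by the range of the group, was above Dixon's 95% critical value, which chance passes in about 1 in 20 groups. No member was among them. Cd40 in MWCNT mouse 5 was low at a log2 level of 7.19, against 8.04 to 8.55 in the other 5 MWCNT mice (gap ratio 0.626). Marcksl1 in the same mouse was low at 7.03, against 7.55 to 7.69 (0.796), and Itgal in the same mouse was high at 11.11, against 10.91 to 10.98 (0.630). Fos in MWCNT mouse 1 was low at 11.85, against 12.32 to 12.59 (0.638). Lta in MWCNT mouse 3 was high at 6.55, against 5.66 to 5.87 (0.762), and in control mouse 4 it was low at 4.83, against 5.23 to 5.47 (0.636). Litaf in control mouse 6 was low at 13.42, against 13.66 to 13.76 (0.711). Tnfrsf21 in control mouse 1 was high at 13.02, against 12.77 to 12.87 (0.634). Tnfsf13b in control mouse 3 was low at 10.11, against 10.65 to 10.84 (0.739).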

How the results depend on the processing

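No member other than Nfkb2 and Tnfrsf1a was called under any of 25 alternatives. Nfkb2 was called with median scaling, at 0.60 (adjusted p = 0.0197 by limma; range 0.0197 to 0.394 over its alternatives), which made 1 member raised, and Tnfrsf1a without control mouse 1, which made 1 member lowered. Over all features, median scaling raised 12.8% and leaving out control mouse 1 lowered 5.53%. Leaving out 1 mouse at a time gave -0.48 to -0.07 for Tnf, -0.52 to -0.32 for Tnfrsf1a, -0.084 to 0.00031 for Rela, -0.077 to 0.062 for Nfkbia and 0 to 1 member lowered. Signs changed for Tnfrsf1b at -0.012 and Icam1 at -0.047 with scaling to the kept probes, and for Tnfaip3 at 0.046 with median scaling. Nfkbia turned to 0.093 with median scaling, 0.12 with the mean of its probes, 0.024 with array weights, 0.12 without the Y-linked arrays and 0.12 with sex as a covariate. None of these values passed, and the cause was not tested. Pathway genes raised were 35 with median scaling and 12 when detected on all 12 arrays, beside 12.8% and 5.16% of all features. Those lowered were 0 with median scaling, 14 with scaling to the kept probes, 4 without the Y-linked arrays and 2 to 6 with 1 mouse left out. The shares of all features lowered in these settings were, in that order, 1.63%, 14.1%, 4.78% and 4.32% to 5.53%. NF-kB targets lowered were 2 with scaling to the kept probes and 1 with no filter, beside 14.1% and 2.77% of all features. With the mouse number as a replicate block, 28 pathway genes were raised and 3 lowered, beside 6.43% and 4.83% of all features. No member was called in that setting. Tnf and Tnfaip3 had r = 0.012 without the 2 arrays farthest from the median. Among single genes, Fas had -0.057 with scaling to the kept probes, -0.073 with the mean of probes, -0.023 with array weights, -0.027 without the Y-linked arrays or with sex as a covariate, and -0.053 to 0.072 with 1 mouse left out; Casp8 had -0.094 with scaling to the kept probes and -0.012 with the mean of probes; Fth1 had -0.038 to 0.0027 with 1 mouse left out. Signal over background limits Nfkb2, whose scanner signal was 1.47 to 2.27 times background, more than Rela, at 21.1 to 36.7 times.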
